A study of Mus musculus with 2 samples.

Results

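Neutrophil granule proteins were followed through 10 genes, Mpo, Elane, Camp, Ngp, Ltf, Lcn2, Cd177, Chil3, Pglyrp1 and Serpinb1a, all 10 of which were found by symbol among the 32285 genes listed in each of 2 single-cell libraries. Their transcripts were counted in neutrophils, defined by S100a8 and S100a9 making up at least 1.5% and C1qa, C1qb, C1qc and Apoe together under 0.5% of a barcode's unique molecular identifiers (UMIs, counted transcript molecules). These cells numbered 612 in 4T1P and 1686 in 4T1M. No measured value enters the rule that names the genes, although the choice was made with earlier results of these data known.

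Neutrophils build their granules in sequence as they mature in the bone marrow. Primary granules, holding myeloperoxidase (Mpo) and neutrophil elastase (Elane), form first, followed by secondary granules with cathelicidin (Camp), neutrophilic granule protein (Ngp), lactoferrin (Ltf) and lipocalin 2 (Lcn2), and later by gelatinase granules and secretory vesicles. The proteins are stored and persist in mature cells, whereas the messenger RNA of most granule proteins is shut off in turn, so that a granule transcript marks a stage of maturation better than it marks the protein content of the cell.

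4T1 is a mammary carcinoma line of BALB/c mice. 4T1P is its parental form, which does not respond to anti-PD1, and 4T1M was obtained from it by chemical mutagenesis and responds. The paper calls 4T1M a mutagenized clone, although its methods describe the mutagenized cells as multiclonal. Tumours were taken before any treatment from mice 6 to 8 weeks old by the deposited record. The paper gives a higher age range, at the injection of the tumour cells. Cells bearing GR1, an antigen shared by Ly6G and Ly6C, were collected with magnetic beads. The mice of a condition were pooled into 1 droplet library (5 mice per sample in the series record, fewer in the paper), so that there was no replicate, no test between conditions was possible, and every interval below is a 95% interval for counting error only.

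The 4T1P library held 2947 barcodes and 21855657 UMIs and the 4T1M library 5004 barcodes and 24303957 UMIs, and 5 barcode sequences occurred in both, none of them a neutrophil in both. Barcodes with 500 to 5000 genes and at most 10% mitochondrial UMIs numbered 1726 and 3461. Neutrophils held 2502947 UMIs in 4T1P and 6580005 in 4T1M, with a median of 3054.5 and 2957.5 UMIs per cell. All 7 neutrophil markers examined (S100a8, S100a9, Ly6g, Csf3r, Retnlg, Cxcr2 and Mmp9) were present in both libraries. S100a8 and S100a9 had to be, since the rule selects on them. The same rule limits C1qa, C1qb, C1qc and Apoe, which are among the 8 macrophage genes below. The markers of other cell types in these neutrophils summed, in CPM (UMIs of a gene scaled to a total of 1000000), to 571 in 4T1P and 619 in 4T1M for 8 macrophage genes, to 69.1 and 12.6 for 3 tumour epithelial genes, and to 4.00 and 149 for 3 erythroid genes. The part of these differences in the results was not tested.

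Camp, Ngp and Ltf lie close together on mouse chromosome 9, at 109847379 to 109849617, 110419747 to 110423012 and 111019271 to 111042767 in GRCm38. Lcn2 lies on chromosome 2 at 32384633 to 32388252. The 250 bases before the RefSeq start of these 4 genes are shown because all 4 are classical targets of C/EBP factors, and C/EBP epsilon is required for secondary granules. The RefSeq starts differ from the gene positions above, which are from GENCODE. By those positions 161 of the 250 bases for Camp, 61 for Ngp, 21 for Ltf and all 250 for Lcn2 lie inside the gene. The sequences are from RefSeq (GRCm38.p6), written 5′ to 3′ on the strand of the gene, with capitals marking matches to the C/EBP pattern TTGCNNAA on either strand.
Camp (chr9:109849457-109849706, minus strand): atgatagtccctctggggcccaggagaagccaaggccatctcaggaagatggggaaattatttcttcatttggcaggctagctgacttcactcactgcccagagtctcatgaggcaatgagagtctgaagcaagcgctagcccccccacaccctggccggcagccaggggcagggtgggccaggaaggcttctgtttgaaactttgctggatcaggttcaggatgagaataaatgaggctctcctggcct
Ngp (chr9:110419558-110419807, plus strand): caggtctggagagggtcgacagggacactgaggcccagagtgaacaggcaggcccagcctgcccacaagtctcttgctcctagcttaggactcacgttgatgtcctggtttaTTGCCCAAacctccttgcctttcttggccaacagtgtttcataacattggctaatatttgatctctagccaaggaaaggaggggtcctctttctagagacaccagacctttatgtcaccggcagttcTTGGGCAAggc
Ltf (chr9:111019042-111019291, plus strand): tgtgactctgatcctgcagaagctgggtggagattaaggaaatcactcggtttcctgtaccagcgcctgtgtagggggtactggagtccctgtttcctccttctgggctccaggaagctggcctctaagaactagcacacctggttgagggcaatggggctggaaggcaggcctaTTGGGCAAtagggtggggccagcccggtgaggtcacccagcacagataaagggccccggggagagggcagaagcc
Lcn2 (chr2:32387740-32387989, minus strand): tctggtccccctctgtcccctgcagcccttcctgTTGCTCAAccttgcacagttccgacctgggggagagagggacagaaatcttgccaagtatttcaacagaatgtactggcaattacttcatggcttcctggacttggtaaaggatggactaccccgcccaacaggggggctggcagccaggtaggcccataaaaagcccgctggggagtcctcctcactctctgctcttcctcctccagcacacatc
Of 9 members with a promoter in the RefSeq table (Serpinb1a was not among them), 3 held this C/EBP pattern. Ngp held it at 2 positions, 138 to 131 and 11 to 4 bases before the start, Ltf at 75 to 68 and Lcn2 at 216 to 209. Of all 32851 promoters of the same length, 9.56% held it. The PU.1 pattern GAGGAA, on either strand and with no base shared with a C/EBP match, was present in 6 of the 9 (Mpo, Elane, Ltf, Lcn2, Cd177 and Pglyrp1) against 23.3% of all promoters. Camp and Chil3 held neither set of letters in this window.

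Of the primary granule transcripts, those of Mpo and Elane were all but missing. Mpo, the peroxidase that makes hypochlorous acid, had 0 UMIs in the 612 neutrophils of 4T1P, which allows up to 1.2 CPM (3 counts), and 3 UMIs, 1 in each of 3 cells, in the 1686 of 4T1M. Elane, a serine protease, had 8 UMIs in 4T1P and 1 in 4T1M. All 8 of the 4T1P UMIs came from a single cell of 2363 UMIs, which also held 15 UMIs of Prtn3 (proteinase 3, another primary granule protease), 79 of Ngp, 25 of Camp and 0 of Mpo. A 4T1M cell of 5091 UMIs held 1 UMI of Mpo, 7 of Prtn3, 277 of Ngp and 188 of Camp. These cells held 68 and 127 UMIs of the 10 genes in 1000. Other cells with primary granule UMIs did not, such as a 4T1P cell of 9001 UMIs with 5 of Prtn3, 1 of Prss57, 0 of Camp and 2 granule UMIs in 1000, and in 4T1M 2 of the 3 Mpo and 44 of the 68 Prtn3 UMIs lay in cells with fewer than 20 granule UMIs in 1000.

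The few Mpo and Elane UMIs were set beside those of other barcodes. Macrophage-marker barcodes (the 4 macrophage genes at 0.5% or more and S100a8 with S100a9 under 1.5%; 635 in 4T1P, 761 in 4T1M) held 7 and 5 UMIs of Mpo and 2 of Elane in each library. Of the other genes of the primary granule list, Ctsg (cathepsin G) had 0 UMIs in the neutrophils of both libraries. Prss57, a further serine protease, had 9 and 5 in neutrophils and 0 in the macrophage-marker barcodes of both. Prtn3 had 37 UMIs in 17 neutrophils of 4T1P and 68 UMIs in 52 neutrophils of 4T1M. Prtn3 reached a higher level in macrophage-marker barcodes, 46.5 and 24 CPM, than in neutrophils, 14.8 and 10.3 CPM.

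The other 8 genes were expressed, and the summed level set neutrophils apart from the other barcodes. Summed over the 10 genes, the level in neutrophils was 14952 CPM in 4T1P (14801 to 15104) and 9214 CPM in 4T1M (9140 to 9287). Barcodes with both marker sets (11 and 53) held 804 and 2953 CPM, those with neither (468 and 961) 124 and 266 CPM, and macrophage-marker barcodes 34.5 and 35.5 CPM. The order of these 4 classes was the same in both libraries. Much of the 4T1M value for both marker sets came from few barcodes, with 175 of 177 Camp UMIs and 302 of 328 Ngp UMIs in the highest barcode for each gene.

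**Figure D1:**
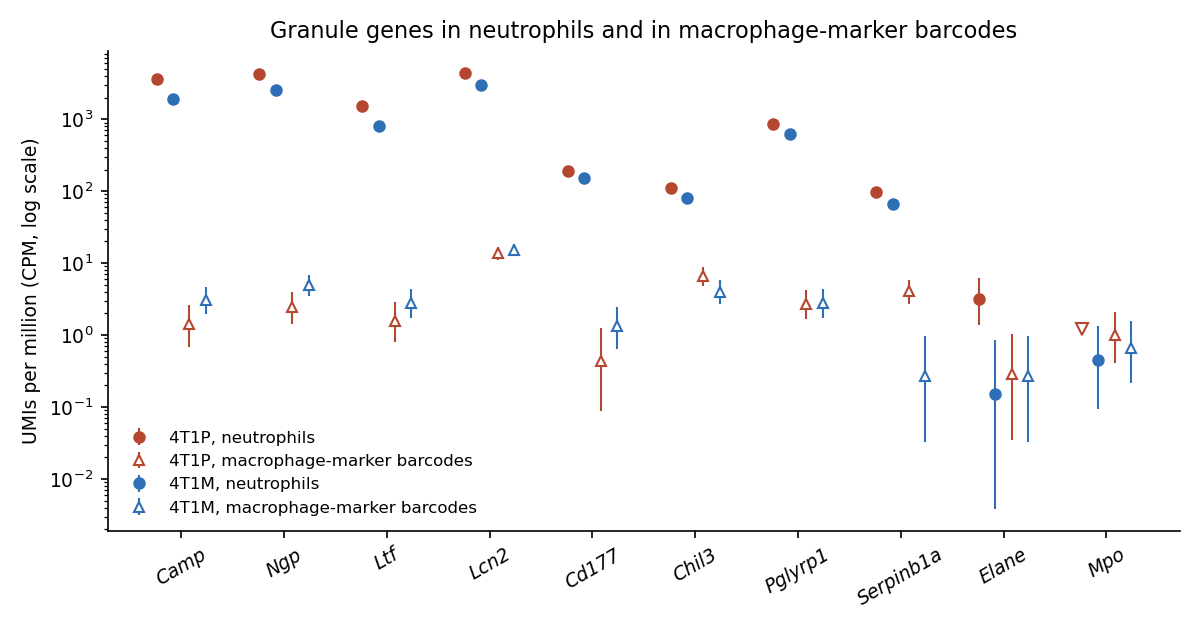
Level of each granule gene in neutrophils (filled circles) and macrophage-marker barcodes (open triangles) of 4T1P (red) and 4T1M (blue), in CPM on a log axis, with exact Poisson 95% intervals; the downward triangle marks the limit of 3 counts for Mpo, with 0 UMIs in 4T1P neutrophils. The 8 expressed genes sit far above the macrophage-marker barcodes, whereas Elane and Mpo do not exceed 3.20 CPM anywhere.

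Camp, the precursor of the antimicrobial peptide cathelicidin, stood at 3575 CPM in 4T1P neutrophils and 1908 CPM in 4T1M. Ngp, a cystatin-related protein of secondary granules, stood at 4243 and 2585 CPM. Ltf, the iron-binding lactoferrin, stood at 1517 and 803 CPM. All of them were lower in 4T1M, with a log2 ratio (4T1M over 4T1P, of CPM) of -0.91 for Camp (-0.95 to -0.87), -0.71 for Ngp (-0.75 to -0.68) and -0.92 for Ltf (-0.98 to -0.86).

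Lcn2, which binds bacterial siderophores, had 4366 CPM in 4T1P and 2990 CPM in 4T1M, a log2 ratio of -0.55 (-0.58 to -0.51). Cd177, a surface protein also stored in secondary granules, had 192 and 153 CPM, a log2 ratio of -0.33 (-0.49 to -0.17). Chil3, the chitinase-like protein Ym1 that immature neutrophils and macrophages make, had 111 and 80.2 CPM, a log2 ratio of -0.47 (-0.69 to -0.26). These 3 genes, too, were lower in 4T1M than in 4T1P.

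Pglyrp1, a peptidoglycan-binding protein of the later granules, had 845 CPM in 4T1P and 628 CPM in 4T1M, a log2 ratio of -0.43 (-0.50 to -0.35). Serpinb1a, a cytosolic inhibitor that protects the cell from its own granule proteases and is not itself stored in granules, had 98.3 and 65.3 CPM, a log2 ratio of -0.59 (-0.82 to -0.36). All 8 expressed genes were thus lower in 4T1M, as were 46.8% of 9994 genes with at least 10 UMIs. Many of their UMIs came from the same cells, as described below, so the 8 genes are not separate observations. The summed level of the members had a log2 ratio of -0.70 (-0.72 to -0.68).

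Across 4953 genes with at least 100 UMIs in the neutrophils of both libraries together, 1.8% were at least 1.5-fold lower in 4T1M and 7.51% at least 1.5-fold higher. Of the 8 granule genes among them, 4 were past this fold, namely Camp, Ngp, Ltf and Serpinb1a, and 0 were 1.5-fold higher. The count was 3 to 5 under the other settings. Serpinb1a fell short with edgeR's factors (-0.58), with S100a8 and S100a9 at 3% or more (-0.54) and with macrophage markers under 0.2% (-0.58). It also fell short without the highest doublet scores (-0.54), in cells of at least 2000 UMIs (-0.58) and without the highest cell of each library (-0.56). The count was 0 without the 5 cells of each library with the most granule UMIs. There Camp stood at -0.14, Ngp at -0.40, Ltf at -0.56 and Serpinb1a at -0.24. Those 5 cells are unequal shares, 0.817% of 4T1P neutrophils and 0.297% of those of 4T1M. Without the highest 1% of cells of each library the count was 5, with Camp at -1.29. Over 9994 genes with at least 10 UMIs the median log2 ratio was 0.03, and 46.8% were lower in 4T1M. For the secondary granule list the median was -0.48, with 7 of 9 measurable genes lower in 4T1M. That list holds the members Camp, Ngp, Ltf, Lcn2, Cd177 and Chil3, so its median largely repeats them. Its other measurable genes were Hp (haptoglobin) at -0.34, Mmp8 (neutrophil collagenase) at 0.06 and Olfm4 (olfactomedin 4) at 0.94. For the late granule list, which holds the member Pglyrp1, the median was -0.17. Pglyrp1, Mmp9, Slc11a1 and Adam8 were lower and Mmp25 and Itgam higher. The median was -0.32 for 4 measurable serpins and protease inhibitors, the member Serpinb1a among them. It was -0.06 for 6 regulators, 0.03 for the 8 proliferation genes and 0.21 for the 7 mature neutrophil genes.

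These intervals describe UMIs, and the UMIs of Camp, Ngp and Ltf came from very few cells. In 4T1P, 4 of 612 neutrophils held at least 50% of all Camp UMIs, and the highest cell alone held 1731 of 8949 (19.3%). In 4T1M, 8 of 1686 cells held at least 50% of the 12553 Camp UMIs. The corresponding numbers of cells were 6 and 11 for Ngp, 6 and 11 for Ltf, and 3 and 5 for Chil3.

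Lcn2 and Pglyrp1 were spread far more widely. Their UMIs reached 50% with 15 and 18 cells in 4T1P and with 51 and 58 cells in 4T1M, and the highest 5% of cells held 66.8% and 62.8% of them in 4T1P, against 99.9% for Camp. Cd177 lay between these patterns, with 82.3% in the highest 5% of cells in 4T1P and 77.9% in 4T1M. S100a8 needed 39 and 142 cells to reach 50%, and Csf3r, the receptor of the granulocyte growth factor, 124 and 327.

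**Figure D2:**
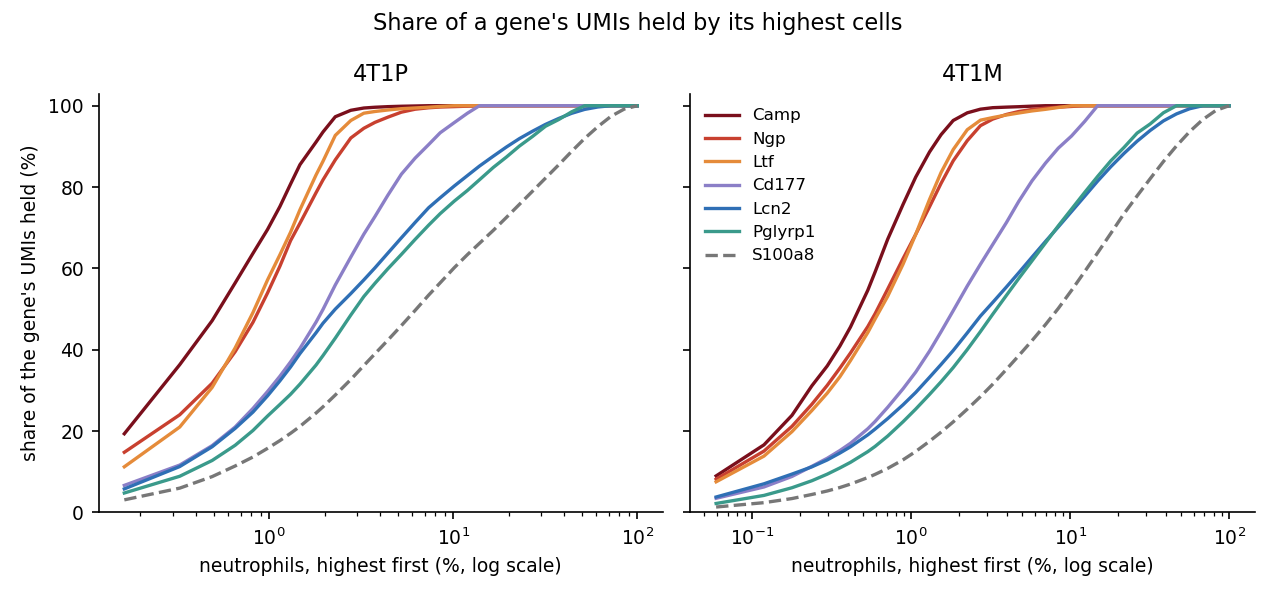
Share of a gene's UMIs (y axis, %) held by its highest cells (x axis, % of neutrophils, log scale) in 4T1P (left) and 4T1M (right), with S100a8 dashed for comparison. The curves of Camp, Ngp and Ltf reach nearly 100% within the highest 5% of cells, whereas Lcn2 and Pglyrp1 hold 58.8% to 66.8% there.

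To compare cells of unequal depth, each neutrophil was thinned to 1000 UMIs, which left out 0 cells of 4T1P and 4 of 4T1M. At this depth Lcn2 was found in 48.2% of cells in 4T1P (44.2% to 52.2%) and 48.7% in 4T1M (46.3% to 51.1%). Pglyrp1 was found in 27.1% (23.6% to 30.8%) and 23.3% (21.3% to 25.4%). The intervals of the 2 libraries overlapped for both genes, in contrast to their summed levels.

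Camp was found in 4.41% of thinned cells in 4T1P (2.93% to 6.35%) and 3.86% in 4T1M (2.99% to 4.90%). Ngp was found in 9.15% (6.99% to 11.7%) and 7.43% (6.22% to 8.79%). Ltf was found in 5.23% and 4.99%, Cd177 in 5.72% and 5.65%, Serpinb1a in 2.78% and 1.61%, and Chil3 in 1.47% and 1.01%. For each of these 8 genes the intervals of the 2 libraries overlapped. The share of all genes with such overlap was not examined, so the overlap is not a trait particular to these genes. Before thinning, Camp was found in 7.19% and 6.58% and Lcn2 in 66.7% and 65.2% of cells.

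Free RNA can place UMIs in droplets whose cell does not express a gene. In thinned macrophage-marker barcodes, whose median depth was 9305 and 9440 UMIs, Camp was found in 0 of 617 in 4T1P, which allows up to 0.486%, and in 0.137% in 4T1M. Ngp was found there in 0.324% and 0.548%, Pglyrp1 in 0.486% and 0.548%, and Lcn2 in 0.972% and 1.64%. All of these lie below the shares in neutrophils. Before thinning, Camp was found in 1.57% and 3.02% of macrophage-marker barcodes, against 7.19% and 6.58% of neutrophils. Ngp was found in 2.68% and 4.60%, against 14.1% and 12.0%. Thinning takes more UMIs from these deeper barcodes, so their thinned shares do not give the level of free RNA in neutrophils. The part of free RNA in cells with few granule UMIs was not tested. Barcodes with neither marker set held more Lcn2, found in 7.30% of them after thinning in 4T1P and 14.2% in 4T1M, and also held 68 and 154 UMIs of Chil3. Chil3 reached 20.1 and 31.9 CPM in them, against 111 and 80.2 CPM in neutrophils. After thinning it was found in 0.442% and 0.951% of them, against 1.47% and 1.01% of neutrophils.

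The distribution over cells was described by the number of UMIs from the 10 genes among the 1000 of each cell. The median was 1 in both libraries, and the highest cell reached 132 in 4T1P and 127 in 4T1M. Cells with 20 or more, here called granule-rich, numbered 23 of 612 in 4T1P, or 3.76% (2.40% to 5.59%), and 52 of 1682 in 4T1M, or 3.09% (2.32% to 4.03%). The intervals overlapped. The class is a range of a continuous score and not a cell type: 10 cells in 4T1P and 23 in 4T1M held 15 to 24 such UMIs.

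Cells at the upper end made up a larger share of 4T1P. With 50 or more granule UMIs there were 16 cells in 4T1P, or 2.61% (1.5% to 4.21%), and 26 in 4T1M, or 1.55% (1.01% to 2.26%). With 100 or more there were 6 (0.980%, 0.361% to 2.12%) and 8 (0.476%, 0.206% to 0.935%). Among granule-rich cells, 69.6% (47.1% to 86.8%) had 50 or more in 4T1P and 50% (35.8% to 64.2%) in 4T1M. The intervals overlapped at each of these limits.

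**Figure D3:**
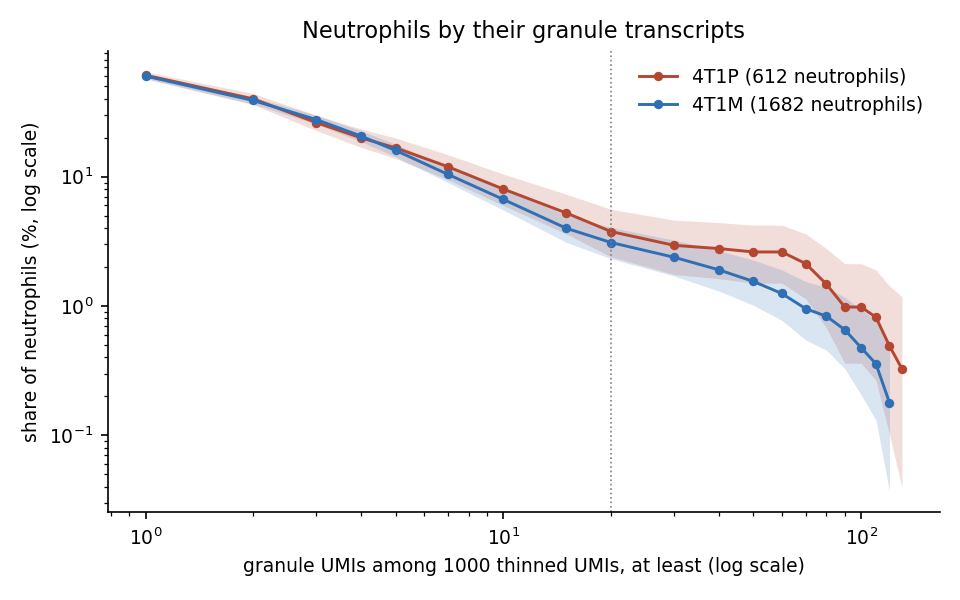
Share of neutrophils (y axis, %, log scale) with at least a given number of UMIs of the 10 granule genes among 1000 thinned UMIs (x axis, log scale), for 612 cells of 4T1P (red) and 1682 of 4T1M (blue), with exact binomial 95% intervals as bands; the dotted line marks 20 UMIs. The curves run together at low numbers, 4T1P lies above 4T1M at 50 and 100, and the bands overlap there.

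The granule-rich cells held most of the granule transcripts. They gave 14.3% of neutrophil UMIs in 4T1P and 10.7% in 4T1M, and held 82.6% and 77.0% of all UMIs of the 10 genes. Within them the members summed to 86267 CPM in 4T1P and 66168 CPM in 4T1M, and in the remaining neutrophils to 3044 and 2374 CPM. Because the class was cut on these same genes, the step between the classes is a description.

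Granule-rich cells varied widely among themselves. In 1000 thinned UMIs, Camp ranged from 0 to 46 with a median of 14 in 4T1P, and from 0 to 54 with a median of 10.5 in 4T1M. Ngp ranged from 3 to 43 with a median of 25, and from 0 to 47 with a median of 17.5. Lcn2 was never missing, with 6 to 34 (median 18) in 4T1P and 5 to 34 (median 12) in 4T1M. In the cells with 50 or more granule UMIs, Camp, Ngp, Ltf and Lcn2 were found together in 16 of 16 and 26 of 26, whereas of the cells with 20 to 49 Camp was found in 4 of 7 and 18 of 26.

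Granule-rich cells were deeper than the rest, with a median of 14945 UMIs against 2990 in 4T1P and 11878 against 2916.5 in 4T1M. Of the neutrophils with at least 10000 UMIs, 16 of 32 in 4T1P and 32 of 79 in 4T1M were granule-rich, compared with 2 of 401 and 3 of 1037 of those with 2000 up to 5000. The 4 macrophage genes made up 0.0123% and 0.0147% of their UMIs, against 0.0414% and 0.0447% in other neutrophils. B cell and basophil markers had 0 UMIs in them, and the 3 erythroid genes summed to 2.79 and 1.42 CPM. The 3 monocyte genes summed to 128 and 154 CPM in them, against 55.5 and 81.0 CPM in all neutrophils, with 123 and 137 CPM from a single gene. The 5 T or NK cell genes summed to 117 and 96.4 CPM, against 30 and 24.2 CPM, with 114 and 90.7 CPM from a single gene and Cd3e, Trbc2 and Klrb1c at 0. The part of these markers in the results was not tested. Removing the barcodes with the highest Scrublet doublet scores (6 and 41 neutrophils) left all 23 and 52 granule-rich cells in place. Scrublet's own threshold had not worked in these libraries, so this removal cannot show whether the granule-rich cells include doublets. In sums of UMIs, deep cells such as these weigh more than shallow ones.

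The difference between the libraries was then read within each class. As the classes were cut on these same genes, such values also depend on where the cells of a library lie within a class. Of the granule-rich cells, 69.6% in 4T1P and 50% in 4T1M had 50 or more granule UMIs. In 4T1P, 1 cell gave 1731 of their 8900 Camp UMIs. The values are a description. In granule-rich cells the log2 ratio of CPM was -0.50 for Camp (-0.54 to -0.46), -0.52 for Ltf (-0.58 to -0.46), -0.40 for Lcn2 (-0.45 to -0.36) and -0.27 for Ngp (-0.31 to -0.24), all lower in 4T1M. Cd177, Chil3 and Serpinb1a stood at -0.06, -0.10 and -0.02, with intervals that include 0. The summed level had a log2 ratio of -0.38 (-0.40 to -0.36).

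In the remaining neutrophils the summed level had a log2 ratio of -0.36 (-0.40 to -0.32), so a difference of this size was also read outside the granule-rich cells. There, Lcn2 (-0.29, -0.34 to -0.24) and Pglyrp1 (-0.28, -0.39 to -0.17) gave most of the UMIs, 4519 and 1011 in 4T1P. Ngp stood at -1.24 (-1.39 to -1.08) on 626 and 727 UMIs and Serpinb1a at -1.45 (-2.05 to -0.86) on 50 UMIs in each library. Camp, with 49 and 121 UMIs, stood at -0.15 (-0.64 to 0.36).

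The value outside the granule-rich cells rested on where the limit was set. With the limit at 10 UMIs it was -0.09 (-0.14 to -0.04), and at 50 UMIs it was -0.02 (-0.06 to 0.01). The summed value over all neutrophils also rested on a few cells. Leaving out the cell with the most granule UMIs in each library gave -0.62 and leaving out the 5 highest gave -0.36, and Camp then moved from -0.91 to -0.72 and to -0.14. Leaving out the highest 1% of cells gave -0.69 for the sum and -1.29 for Camp. Averaging each cell's share in place of summing UMIs, so that each cell had the same weight, gave -0.39 for the sum. Every one of these values was below 0, and their size depended on which of a small number of cells were counted.

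**Figure D4:**
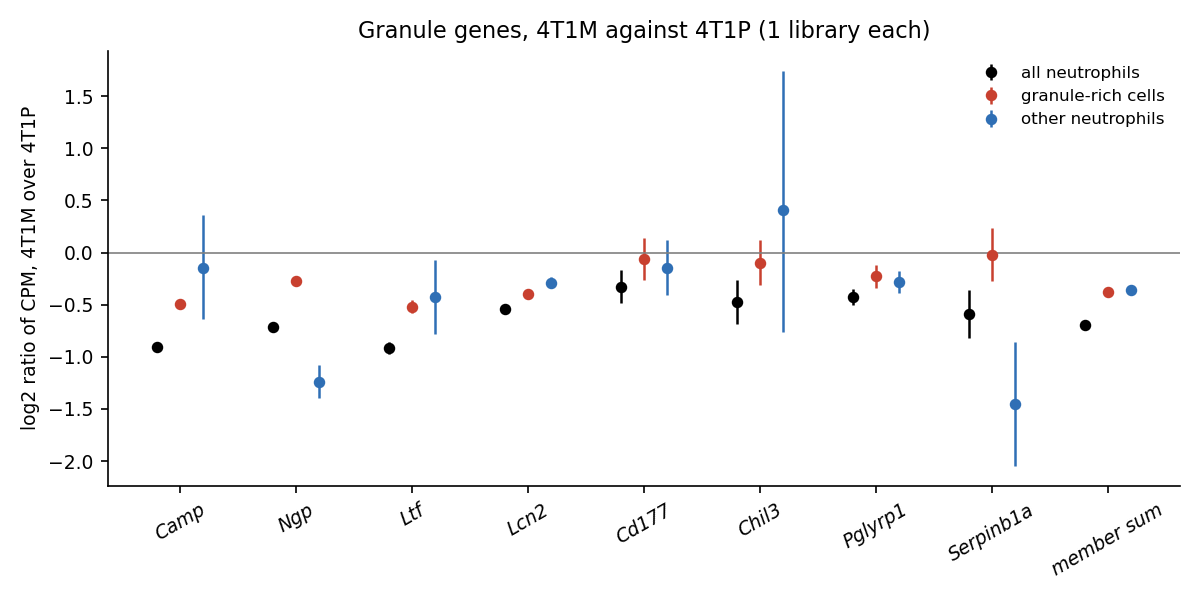
Log2 ratio of CPM, 4T1M over 4T1P, of the 8 expressed granule genes and of their sum with Elane and Mpo, in all neutrophils (black), granule-rich cells (red) and other neutrophils (blue), with exact 95% counting intervals. Values in all neutrophils lie below 0 for each gene, those of Cd177, Chil3 and Serpinb1a in granule-rich cells lie at 0 within their intervals, and the sum is at -0.38 and -0.36 in the 2 classes.

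An order among the transcripts was read across cells of falling granule content, which is a cross-section and not a course in time. Cells were sorted by the thinned UMIs of the other 9 genes, leaving out the gene examined, into those with 50 or more, 20 to 49, 5 to 19, 1 to 4 and 0. The cells in a range therefore differ from gene to gene, most of all for Lcn2. Its range of 5 to 19 held 19 cells in 4T1P and 31 in 4T1M, against 80 and 214 for Camp. Lcn2 was found in 48.2% and 48.7% of thinned cells and Camp in 4.41% and 3.86%. The ranges for Camp count Lcn2 UMIs, whereas those for Lcn2 do not. A cell with many Lcn2 UMIs can thus fall in a higher range for Camp than for Lcn2. By construction this raises Lcn2 and lowers Camp within a range, and its part in the order was not tested. The 2 upper ranges are thin, with 9 to 16 and 4 to 12 cells in 4T1P for the 6 genes Camp, Ngp, Ltf, Lcn2, Pglyrp1 and Cd177.

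Camp and Ltf kept little of their top level below 20 UMIs. In 4T1P, Camp went from 30246 CPM in the top range to 7411, 145, 5.49 and 6.4 CPM, and in 4T1M from 28543 CPM to 6886, 94.8, 9.15 and 7.88 CPM. At 5 to 19 UMIs it had 0.480% and 0.332% of its top level left. Ltf was at 12.6% and 39.5% of its top level at 20 to 49 UMIs and at 1.45% and 0.614% at 5 to 19. Chil3 followed the same course, with 1.70% and 0.411% left at 5 to 19 UMIs.

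Ngp kept somewhat more of its top level. It went in 4T1P from 35851 CPM to 21612, 1708, 94.6 and 17.6 CPM and in 4T1M from 35453 CPM to 15781, 1495, 72.0 and 15.6 CPM. It thus held 60.3% and 44.5% of its top level at 20 to 49 UMIs and 4.77% and 4.22% at 5 to 19. Serpinb1a stood between Ngp and the late genes at 5 to 19 UMIs, with 15.7% and 5.25% left.

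Lcn2, Pglyrp1 and Cd177 kept the most of their top level at 5 to 19 UMIs. At 5 to 19 UMIs Lcn2 was still at 45.6% of its top level in 4T1P and 56.8% in 4T1M, Pglyrp1 at 38.7% and 39.6%, and Cd177 at 31.3% and 20.9%. In cells with no thinned UMI of any other member, Lcn2 remained at 1431 and 1286 CPM, or 7.43% and 8.16% of its top level. Pglyrp1 remained at 256 and 206 CPM, or 8.17% and 7.36%. Cd177 kept less in 4T1P, 2.87% in such cells and 3.05% at 1 to 4 UMIs. Both libraries gave the same grouping, with Camp, Ltf and Chil3 lowest, Ngp next, and Cd177, Pglyrp1 and Lcn2 highest at 5 to 19 UMIs. This grouping rests on ranges that differ between the genes, as given above.

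Genes outside the 10 marked different stretches of this order. Mmp8, neutrophil collagenase, peaked at 20 to 49 UMIs, with 929 CPM in 4T1P and 994 CPM in 4T1M, against 352 and 343 CPM in the top range. Retnlg, a secreted resistin-like protein, was at 4240 and 4417 CPM in the top range and rose to 26911 CPM at 20 to 49 UMIs in 4T1P and to 16108 CPM at 5 to 19 UMIs in 4T1M. The proliferation list (8 genes such as Mki67 and Top2a) summed to 537 and 754 CPM in the top range, against 0 and 24 CPM at 20 to 49 UMIs, where 4T1P had 7 cells. Below that it stood at 44.2, 61.2 and 57.9 CPM in 4T1P and at 55.2, 64.7 and 101 CPM in 4T1M. In the top range, 2 of 16 thinned cells of 4T1P and 8 of 26 of 4T1M held any of these UMIs, and 1 cell of 4T1P held 28 of the 35 Mki67 UMIs of its granule-rich cells.

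The mature neutrophil list (Cxcr2, Csf3r, Il1b, Ptgs2, Cxcl2, G0s2 and Srgn) ran the other way. Its sum went from 14800 CPM in the top range of 4T1P to 75405 CPM in cells with no thinned granule UMI, and from 22928 to 86622 CPM in 4T1M. Cxcl2 weighed most in this sum, with 38665 and 49603 CPM in neutrophils outside the granule-rich class. Every gene of the list had a lower CPM in granule-rich cells than in other neutrophils, by unequal amounts. Cxcr2 stood at 204 against 345 CPM in 4T1P and 255 against 391 CPM in 4T1M. S100a8, S100a9 and the members took a larger part of the UMIs of granule-rich cells. S100a8 stood at 161794 against 50000 CPM in 4T1P and 148697 against 44896 CPM in 4T1M. This lowers the CPM of every other gene in granule-rich cells, and its part in these differences was not tested. Cebpe, which encodes C/EBP epsilon, had 37 of its 42 UMIs in the 23 granule-rich cells of 4T1P and 75 of 101 in the 52 of 4T1M. Cebpb, a C/EBP factor of mature and activated myeloid cells, had 2079 and 2039 CPM in the top range and 7914 and 7224 CPM in cells with no thinned granule UMI.

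**Figure D5:**
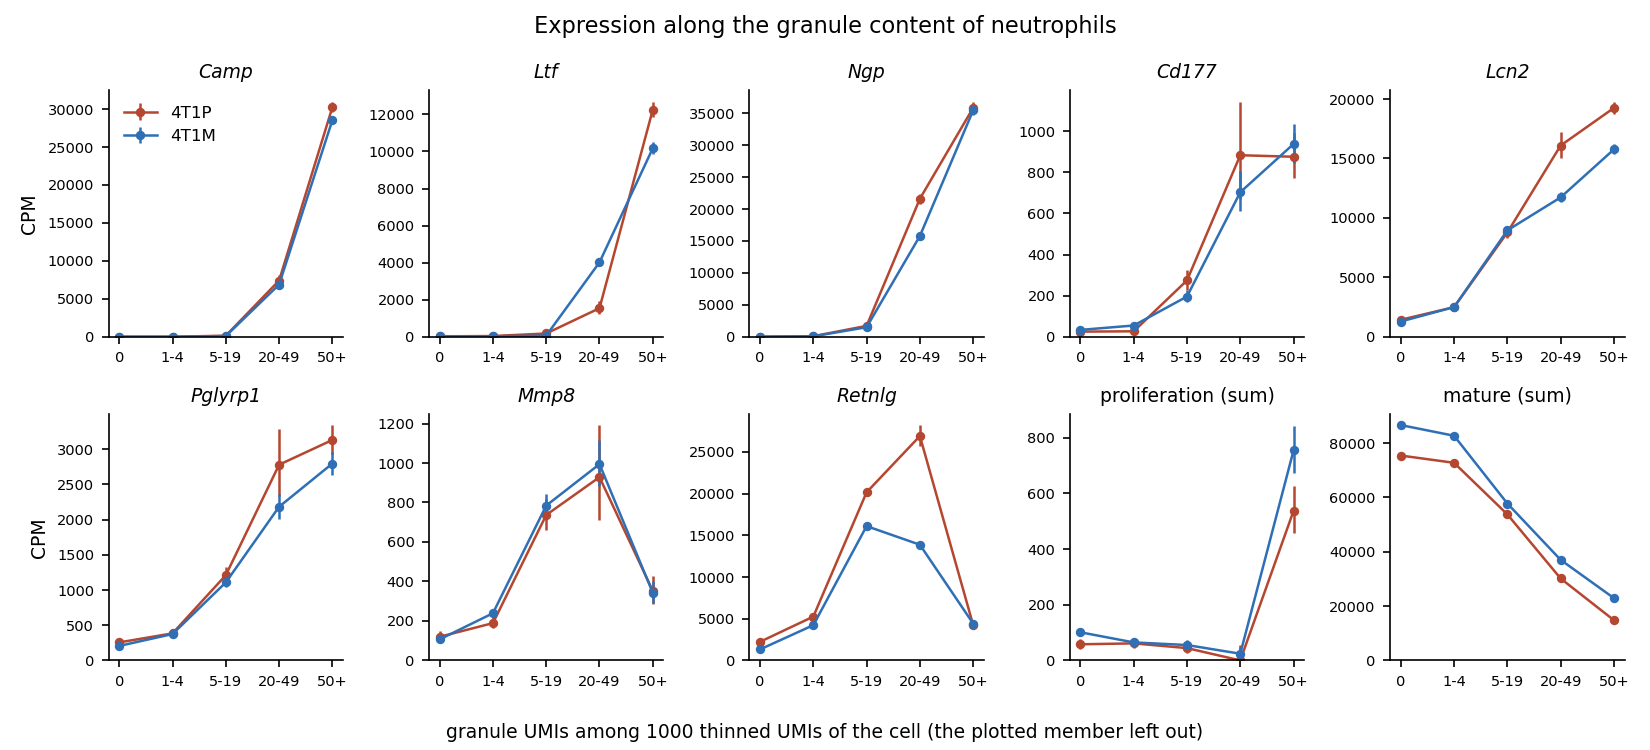
Level (CPM, linear axes from 0) of 6 granule genes, Mmp8, Retnlg and the summed proliferation and mature neutrophil lists in neutrophils sorted by their granule UMIs among 1000 (x axis; the plotted granule gene left out of the sorting), for 4T1P (red) and 4T1M (blue) with exact Poisson 95% intervals. Camp and Ltf are near 0 below 20 UMIs, Lcn2 and Pglyrp1 persist at 5 to 19, Mmp8 is highest at 20 to 49, and the mature list falls as granule UMIs rise.

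Detection in the same single cells was uneven between pairs of genes. Of cells with a thinned Camp UMI, 24 of 27 in 4T1P (88.9%, 70.8% to 97.6%) and 50 of 65 in 4T1M (76.9%, 64.8% to 86.5%) also held Ngp. Conversely, 42.9% and 40% of cells with Ngp held Camp. Lcn2 was present in 89.3% and 86.4% of cells with Ngp, whereas Ngp was present in 16.9% and 13.2% of cells with Lcn2. Other pairs did not follow the order given above. Cd177 was present in 44.6% and 34.4% of cells with Ngp, whereas Ngp was present in 71.4% and 45.3% of cells with Cd177. Of cells with Ltf, 65.6% and 56.0% held Ngp. Such shares depend on the level of each gene as well as on its presence.

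Elsewhere in the transcriptome, the genes most like the summed thinned UMIs of Camp, Ngp, Ltf and Lcn2 were sought over single neutrophils among 4524 genes found in at least 1% of cells of each library. They were Ifitm6, Anxa1, S100a8, Ly6g, Wfdc21, Lyz2, S100a9, Retnlg, S100a6 and Arhgdib. Lcn2 was found in far more thinned cells than Camp, Ngp or Ltf, so in many cells the sum was Lcn2 alone. Likeness to the sum is thus not the same as a high level in granule-rich cells. Retnlg stood at 8399 CPM in them against 7302 CPM in other neutrophils of 4T1P, and at 8328 against 5184 CPM in 4T1M. Pearson's r over 612 and 1682 cells was 0.64 in 4T1P and 0.56 in 4T1M for Ifitm6, 0.60 and 0.50 for Anxa1, and 0.48 and 0.44 for Ly6g, the neutrophil component of GR1. The cells of a library share its depth and preparation, and S100a8 and S100a9 also served to define the cells.

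Olfm4, a secondary granule protein known to be made by only a part of neutrophils, stood out in the list because its level was higher in 4T1M, 119 CPM against 61.9 CPM in 4T1P, a log2 ratio of 0.94 (0.69 to 1.2). It was found in 191 of 1686 cells in 4T1M, with at most 38 UMIs in a cell, and in 41 of 612 in 4T1P, with at most 10. In granule-rich cells it had 4 UMIs in 4T1P and 121 in 4T1M. At the thinned depth, 4.74% of cells in 4T1P (3.20% to 6.73%) and 6.72% in 4T1M (5.57% to 8.02%) held it, with overlapping intervals.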

How the data were processed

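GR1+ cells of pooled 4T1P and 4T1M tumours were profiled in 1 droplet library each. The authors aligned reads to mm10 with Cell Ranger, version 4.0.0 per the labels and file headers (the methods name a later version), and deposited raw UMI counts for each gene in each barcode, without normalization. Barcodes with 500 to 5000 genes and at most 10% mt- UMIs were retained and classed by the marker shares given above. Counts were summed per class and scaled to CPM. Levels carry exact Poisson intervals, shares exact binomial (Clopper-Pearson) intervals and log2 ratios exact conditional intervals, all at 95%. A count of 0 is limited by 3 counts. Cells were thinned to 1000 UMIs by draws without replacement from a fixed seed. No p-value was computed, since each condition had 1 library. List medians used genes with at least 10 UMIs, with 0.5 UMIs added to each sum.

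Doublets were kept in the values given. Scrublet's own threshold marked 0.406% and 0.0867% of retained barcodes and had not worked, and the highest scores at 0.8% per 1000 barcodes (24 and 96 barcodes) were removed as an alternative. Other alternatives were edgeR 4.0.16 and DESeq2 1.42.0 scaling factors, other limits on markers, mitochondrial share, depth and the granule-rich class, and single cells or shared barcodes left out. Python 3.11.15 with scipy 1.17.1 and scanpy 1.11.5 and R 4.3.3 were used, and the intervals and the thinning were tested on simulated data. The simulated sums held counting error only and no spread between cells. They therefore cannot show how the intervals behave where few cells hold most UMIs. Named genes are the 10 members, genes of fixed lists where a list is described, and the 10 genes most like Camp, Ngp, Ltf and Lcn2 over cells. The members and lists were chosen with earlier results of these data known. Promoter sequences are from RefSeq (GRCm38.p6) and gene positions from GENCODE, without use of any deposited coordinate.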

Additional observations from a re-analysis of the deposited data

Results flagged for a closer look

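Granule transcripts were also present in barcodes that the limits on genes and mitochondrial UMIs left out of every comparison above, at levels over the 34.5 and 35.5 CPM of macrophage-marker barcodes. In barcodes with over 5000 genes the 10 genes summed to 192 CPM in 4T1P (136 barcodes) and 1614 CPM in 4T1M (49 barcodes). A single 4T1M barcode of 42226 UMIs held 2542 of the 3218 granule UMIs there, and S100a8 with S100a9 made up 28.9% of its UMIs. The highest such 4T1P barcode, of 75208 UMIs, held 262 of 1086 granule UMIs. S100a8 with S100a9 made up 0.00133% of its UMIs, and 0 of these 4T1P barcodes had 20 granule UMIs per 1000. In barcodes with 500 to 5000 genes and over 10% mitochondrial UMIs the sum was 1522 CPM in 4T1P (420 barcodes) and 982 CPM in 4T1M (472 barcodes). A single 4T1P barcode of 19744 UMIs held 1422 of the 3481 granule UMIs there. In all, 3 left-out barcodes in 4T1P and 5 in 4T1M had at least 20 granule UMIs per 1000, beside the 23 and 52 granule-rich cells.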

How the results depend on the processing

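No paired analysis was possible because each condition had 1 library. Of 168 recomputed values, 122 stayed within the counting interval of the value reported and 46 moved beyond it. Among the log2 ratios 0 changed direction, whereas the granule-rich shares have no direction to change. For the median of the secondary list, the interval used was that of its middle gene, Chil3. The summed log2 ratio over all neutrophils (-0.70) became -0.76 with S100a8, S100a9 and the members left out of the totals, -0.88 at a mitochondrial limit of 5%, -0.64 and -0.72 with S100a8 and S100a9 at 3% and 0.75% or more, -0.66 without the highest doublet scores, -0.68 in cells of at least 2000 UMIs and -0.39 as a mean over cells. Settings added after seeing the data gave -0.62 without the highest cell and -0.36 without the 5 highest, where the median of the secondary list (-0.48) became -0.24. Another of them, which left out an equal share (the highest 1% of cells of each library), gave -0.69. With the granule-rich limit at 10 UMIs the shares became 8.01% and 6.66% and the value outside the class -0.089. With the limit at 50 UMIs the 4T1M share became 1.55% and the value outside -0.021. The value outside (-0.36) was also -0.44 at a mitochondrial limit of 5%, -0.31 with S100a8 and S100a9 at 3% or more and -0.31 under another thinning seed. For single members, 76 of 104 values stayed and 28 moved, all below 0, from -1.29 to -0.14. The scaling factors of edgeR and DESeq2 and the shared barcodes moved none of the summed values beyond their intervals. The causes of these shifts were not tested. Depth limits Elane and Mpo, with at most 8 UMIs, and Camp outside the granule-rich cells.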
